A study of Homo sapiens with 15 samples.

Results

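The EGF receptor family group held 9 genes of the 22706 in the deposited table, listed by symbol for their role in the pathway: the receptors EGFR, ERBB2 and ERBB3, the ligands AREG, EREG, TGFA and HBEGF, and the receptor inhibitors LRIG1 and ERRFI1. RNA was measured in DLD1, a human colorectal carcinoma cell line, in 15 poly(A) RNA libraries of 5 groups with 3 libraries each. The WT group was the untreated parental line. The KO group was a USP7 knockout line that also carried a Tet-ON plasmid (pEF1α-Tet3G) and an inducible GFP-USP7 plasmid (pTREG-BI-USP7), was selected with G418, and was sampled without doxycycline. The Day1, Day3 and Day9 groups were the same KO line after 1, 3 or 9 days with doxycycline at 1 µg/ml. USP7 is a deubiquitinating enzyme. The WT cells carried neither plasmid, so loss of USP7 and the transfected, selected state of the KO line cannot be told apart, nor can USP7 re-expression and doxycycline itself. The sources do not say whether the KO line was 1 clone.

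EGFR, ERBB2 and ERBB3 are transmembrane receptors that work as pairs. Amphiregulin (AREG), epiregulin (EREG), TGF-alpha (TGFA) and heparin-binding EGF-like growth factor (HBEGF) are made as membrane-bound precursors, are cut free by surface proteases such as ADAM17, and bind EGFR. ERBB2 has no known soluble ligand and acts as the preferred partner of the others, while ERBB3 has a weak kinase and passes signal to PI3-kinase. Active receptors signal through RAS to the MAP kinase ERK and through PI3-kinase to AKT. ERRFI1 (MIG6) binds and blocks the active EGFR kinase, and LRIG1 lowers receptor levels at the membrane. In colorectal cancer AREG and EREG are known as ligands whose RNA is read alongside response to EGFR antibodies.

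Libraries held 14741094 to 15347043 normalised counts in total, and replicates correlated at r of 0.9908 to 0.9957 over genes. The first Day1 library stood furthest from its group. Column names carried 1 project code for the 9 WT, KO and Day1 libraries and another for the 6 Day3 and Day9 libraries, so Day3 or Day9 against KO or WT, and Day3 against Day1, cannot be told apart from the code. Comparisons of KO with WT, Day1 with KO and Day9 with Day3 lie within a code. USP7 itself averaged 3391.8 ± 25.4 normalised counts (SD, n = 3) in WT and 1389.3 ± 17.6 in KO. It averaged 8238.9 ± 375.3 at Day1, 7827.9 ± 341.2 at Day3 and 4787.9 ± 335.7 at Day9. The direction follows the labels, but USP7 RNA was not absent in KO, and every doxycycline group stood above WT. The sources do not say what the remaining KO counts represent. Of 12 colorectal epithelial markers, 11 had a row and all 11 reached 10 normalised counts, and their summed level was 98983.8 to 101435.5 in WT, 150820.3 to 157281.8 in KO, 128329.9 to 148879.5 at Day1, 141126.1 to 152813.6 at Day3 and 102921.9 to 108701.1 at Day9. The markers did not move as one: from WT to KO the mean of KRT20, a marker of differentiated colonocytes, went from 197.7 to 0.0 and that of the stem cell marker LGR5 from 1268.3 to 223.0, while VIL1, of the brush border, went from 539.2 to 2097.2 and CEACAM5 from 6.3 to 48.5. The largest markers in the sum were the keratins KRT8, at 34986.3 in WT and 57212.3 in KO, and KRT18, at 27578.6 and 45846.6. EPCAM went from 9988.6 to 11350.4. The sum, mostly keratin, was high in the KO, Day1 and Day3 groups, where ERBB2, TGFA and HBEGF were also high and EREG and AREG low. Its part in those results was not tested. Of 8 leukocyte, 8 fibroblast and 6 endothelial markers, 3, 2 and 2 had a row, and of these only CD14, COL1A1 and VWF reached 10.

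The family split in the KO line (the plot of members by library). EREG, AREG and EGFR fell, while HBEGF, ERBB2, ERBB3, TGFA and ERRFI1 rose. Of the 8 members that passed the filter on low values (at least 10 normalised counts in at least 3 libraries), all 8 passed the test of KO against WT, 5 higher and 3 lower. Across all 15134 genes tested, 49.7% passed, 24.8% higher and 24.8% lower, so a call by itself was common in this comparison. The median size of the log2 difference was 0.52 over the 8 members and 0.24 over all genes tested. In all 9 members, LRIG1 included, the 3 KO libraries did not overlap the 3 WT libraries, which was also the case for 63.1% of all genes tested. The test was limma on log2(normalised count + 1), two-sided, with Benjamini-Hochberg adjustment over all genes and a threshold of 0.05, and every log2 difference below is on that scale. The p-values measure only the spread between libraries labelled as biological triplicates, which may be technical because separate cultures are not stated. In bulk RNA, fewer cells of a type and less RNA per cell cannot be told apart.

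**Figure D1:**
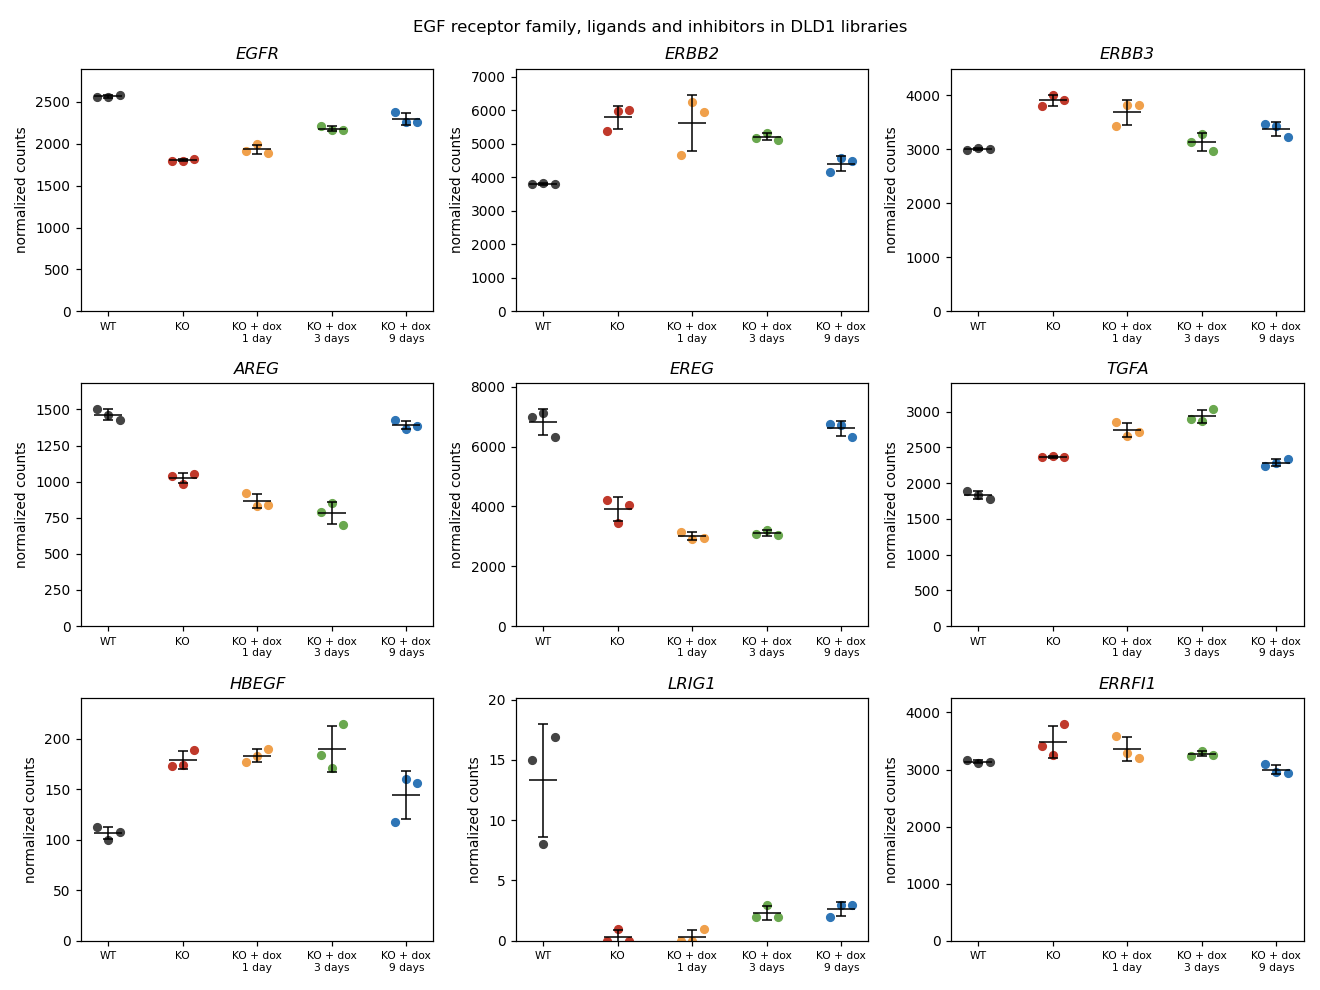
Normalised counts of the 9 genes in each of the 15 libraries, 1 panel per gene on its own linear axis from 0, with groups along the x axis; points are libraries, horizontal lines group means and vertical bars the SD. EREG and AREG are high in WT and Day9 and low in KO, Day1 and Day3, EGFR is lowest in KO, and LRIG1 is above 3 counts in WT libraries alone.

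EREG and AREG lie next to each other on chromosome 4, in the order EPGN, EREG, AREG, BTC, which are all genes of EGF-type ligands. The 300 bases around the annotated starts of EREG and AREG (RefSeq, GRCh38.p14, 250 bases before to 50 after the start) are shown because these neighbours moved together, and that of TGFA because it moved the other way. AREG lies at chr4:74444886-74445185 and EREG at chr4:74364895-74365194, both on the plus strand, and the upstream start of TGFA at chr2:70553777-70554076 on the minus strand. Capitals mark matches on either strand. The TATA box, which places the polymerase, was searched as TATAAA. The cyclic AMP response element (CRE) was searched as TGACGTCA. The GC box, read by SP factors, was searched as GGGCGG. The AP-1 site, read by FOS and JUN factors, was searched as TGANTCA and had no match in the 3 windows.
AREG promoter: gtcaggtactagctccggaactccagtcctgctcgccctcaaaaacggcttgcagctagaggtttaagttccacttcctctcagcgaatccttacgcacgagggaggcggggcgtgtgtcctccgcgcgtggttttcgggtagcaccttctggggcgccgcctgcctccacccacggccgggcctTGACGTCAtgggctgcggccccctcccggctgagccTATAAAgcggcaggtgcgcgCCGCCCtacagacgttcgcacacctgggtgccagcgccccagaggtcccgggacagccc
EREG promoter: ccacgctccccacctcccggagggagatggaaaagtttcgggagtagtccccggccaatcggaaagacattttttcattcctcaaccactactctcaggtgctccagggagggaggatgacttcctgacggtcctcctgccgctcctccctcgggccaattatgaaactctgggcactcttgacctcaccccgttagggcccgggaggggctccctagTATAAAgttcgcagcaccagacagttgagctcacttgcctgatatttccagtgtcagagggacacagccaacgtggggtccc
TGFA promoter: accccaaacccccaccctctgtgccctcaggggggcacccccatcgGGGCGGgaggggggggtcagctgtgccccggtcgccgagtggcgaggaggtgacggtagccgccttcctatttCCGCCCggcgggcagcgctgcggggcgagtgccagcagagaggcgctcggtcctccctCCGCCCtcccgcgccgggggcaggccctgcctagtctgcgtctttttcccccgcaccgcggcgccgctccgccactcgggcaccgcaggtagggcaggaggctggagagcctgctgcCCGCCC
AREG and EREG each held a TATA box, at position -29 and -32 from the start, and 11.5% of 35116 promoters of the same length held one. AREG alone of the 3 held a CRE, at -65, a motif in 1.85% of promoters. GC boxes, present in 45.0% of promoters, numbered 4 in the TGFA window shown and 1 in AREG. The other annotated TGFA start, further downstream, held 0 matches to each of these motifs. These matches describe the letters and were not linked to the RNA levels by any test. RefSeq promoters were matched for 8 of the 9 members.

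EREG had the largest called log2 difference of the 8 tested members in KO against WT. Its normalised counts were 6996.7, 7132.7 and 6320.7 in the WT libraries and 4211.3, 3454.8 and 4062.7 in the KO libraries. After doxycycline they were 3161.1, 2904.8 and 2941.8 at Day1, 3078.6, 3225.9 and 3042.4 at Day3, and 6763.1, 6737.5 and 6335.0 at Day9. The gene was therefore low in KO, lower at Day1 and Day3 with no overlap with KO, and at Day9 back within the range of the WT libraries. The mean fell from 6816.7 ± 434.9 (SD, n = 3) in WT to 3909.6 ± 400.8 in KO, 1.75-fold lower (log2 -0.81, SE 0.06, limma adjusted p = 2.82e-09). Against KO the log2 difference was -0.38 at Day1 (adjusted p = 0.000654), -0.32 at Day3 (adjusted p = 0.000681) and 0.76 at Day9 (adjusted p = 2.16e-08). Without the first Day1 library, the Day1 value was -0.41 (adjusted p = 0.000991). Between Day3 and Day9, both under 1 project code, EREG rose 2.12-fold (log2 1.09, SE 0.06, limma adjusted p = 1.82e-09). Day9 and WT did not differ beyond their spread (log2 -0.04, SE 0.06, adjusted p = 0.687).

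AREG, also low in KO, Day1 and Day3, was close to its WT level at Day9. The WT libraries held 1502.0, 1461.5 and 1430.5 normalised counts and the KO libraries 1037.4, 984.4 and 1052.0. The doxycycline libraries held 921.7, 835.1 and 841.4 at Day1, 790.9, 851.7 and 703.2 at Day3, and 1427.3, 1368.3 and 1382.2 at Day9. Day1 and Day3 overlapped each other and both lay below KO, and the Day9 libraries lay just under the WT range. AREG was 1.43-fold lower in KO than in WT (log2 -0.52, SE 0.06, limma adjusted p = 5.64e-07) and lower again at Day3 than in KO (log2 -0.39, adjusted p = 5.52e-05). The Day1 difference from KO was -0.24 (adjusted p = 0.0135). That call was lost without KO library 1 (adjusted p = 0.0534), KO library 3 (0.0623) or Day1 library 3 (0.0577) and in a fit of the 6 compared libraries (0.0656), and it held without Day1 library 1 (log2 -0.29, adjusted p = 0.00129). At Day9 AREG was higher than in KO (log2 0.44, adjusted p = 1.3e-05) and 1.79-fold higher than at Day3 (log2 0.84, limma adjusted p = 1.4e-08). Build hg19 carries a near-identical copy of the gene, AREGB, which has no row of its own here, and the sources do not say how reads shared by both copies were counted.

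The other neighbour with enough counts, BTC (betacellulin, a ligand of EGFR and ERBB4), had a larger log2 difference. Its 3 libraries ranged from 165.1 to 178.4 normalised counts in WT, 24.9 to 42.9 in KO, 25.9 to 47.3 at Day1, 42.6 to 80.5 at Day3 and 84.6 to 108.5 at Day9. The log2 difference was -2.47 in KO against WT (SE 0.24, limma adjusted p = 2.51e-07) and 1.66 at Day9 against KO (adjusted p = 6.89e-05). Unlike EREG and AREG, BTC was already higher than in KO at Day3 (log2 0.99, adjusted p = 0.0057). Its difference between Day9 and Day3 missed the threshold (log2 0.66, adjusted p = 0.116). BTC thus rose by Day9, while its Day9 mean stayed below that of WT by a margin whose call was lost when single libraries were left out (log2 -0.81, adjusted p = 0.0239, and 0.0816 without Day9 library 1). EPGN (epigen), on the far side of EREG, averaged 1.0 to 1.7 normalised counts and was not tested. The remaining ligands in the table were scarce. EGF averaged 8.6 in WT and 19.9 in KO (log2 1.08, adjusted p = 0.00537), and NRG4, a ligand of ERBB4, 1.7 and 15.6 (log2 2.64, adjusted p = 8.21e-06). NRG2 averaged 0.3 to 3.0. ERBB4, NRG1 and NRG3 were not analysed here.

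TGFA moved opposite to AREG and EREG. Its WT libraries held 1892.7, 1840.1 and 1779.6 normalised counts and its KO libraries 2362.7, 2383.8 and 2365.8. Under doxycycline it stood at 2854.8, 2663.5 and 2719.5 at Day1, 2900.4, 2866.1 and 3035.5 at Day3, and 2240.4, 2276.6 and 2335.6 at Day9. Every Day1 and Day3 library was above every KO library, every KO library was above every Day9 library, and every Day9 library was above every WT library. TGFA was 1.29-fold higher in KO than in WT (log2 0.37, SE 0.04, limma adjusted p = 3.17e-07). It was higher than in KO at Day1 (log2 0.21, adjusted p = 0.00236, and 0.18 with adjusted p = 0.00271 without Day1 library 1) and at Day3 (log2 0.31, adjusted p = 1.2e-05). From Day3 to Day9 it fell by 0.36 on the log2 scale (adjusted p = 9.46e-06). Day3 lay above Day1 by 0.10 (adjusted p = 0.208), which passed without Day1 library 1 (log2 0.12, adjusted p = 0.0434). At Day9 the difference from KO missed the threshold (log2 -0.05, SE 0.04, adjusted p = 0.387), and TGFA was 1.24-fold higher than in WT (log2 0.31, adjusted p = 1.23e-05).

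HBEGF was higher in KO. It stood at 112.6, 99.9 and 107.4 normalised counts in the WT libraries and 173.4, 174.2 and 189.1 in the KO libraries, a 1.67-fold difference (log2 0.74, SE 0.11, limma adjusted p = 1.61e-05). The Day1 libraries held 177.3, 183.2 and 189.4, the Day3 libraries 184.1, 170.9 and 214.8, and the Day9 libraries 117.4, 160.6 and 156.2. Day1 and Day3 overlapped KO, with log2 differences of 0.04 (adjusted p = 0.897) and 0.08 (adjusted p = 0.652). The Day9 libraries lay between WT and KO without overlap, and the first was far below the other two. HBEGF was lower at Day9 than in KO (log2 -0.32, adjusted p = 0.0454), but the call was lost with no filter (0.0607), without any 1 of the KO libraries (0.0776, 0.0809 and 0.151) and without Day9 library 1, where the log2 difference was -0.17 (adjusted p = 0.27). Against Day3 it was -0.40 (adjusted p = 0.0368), a call lost in the 6-library fit (0.0541), without Day3 library 1 (0.0792) or 3 (0.179), and without Day9 library 1 (0.175). Against WT at Day9 it was 0.43 (adjusted p = 0.00973), lost without WT library 2 (0.0509) or Day9 library 2 (0.0621) or 3 (0.0543).

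**Figure D2:**
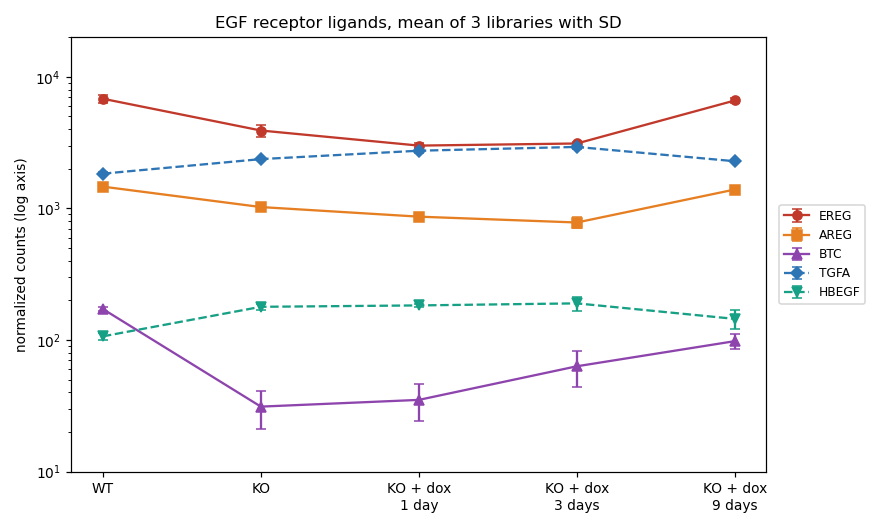
Normalised counts of the ligands on a log axis against group in the order WT, KO, Day1, Day3 and Day9; points are means of 3 libraries, bars the SD, and lines join the groups, which are spaced evenly and not by time. EREG, AREG and BTC are low in KO and higher at Day9, whereas TGFA and HBEGF are higher in KO than in WT.

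Among the receptors, EGFR was lower in KO. Its libraries were higher at each later time on doxycycline, but of these steps only Day1 to Day3, which crosses the project codes, was called. The WT libraries held 2552.5, 2556.4 and 2582.4 normalised counts and the KO libraries 1796.7, 1794.6 and 1812.4. The Day1 libraries held 1914.0, 1991.6 and 1883.1, the Day3 libraries 2209.4, 2163.5 and 2155.3, and the Day9 libraries 2379.8, 2250.8 and 2260.9. Each later group lay wholly above the one before it, and all Day9 libraries lay below all WT libraries. EGFR was 1.42-fold lower in KO than in WT (log2 -0.51, SE 0.04, limma adjusted p = 1.3e-09). Against KO the log2 difference was 0.10 at Day1, which missed the threshold (adjusted p = 0.123), 0.27 at Day3 (adjusted p = 2.76e-05) and 0.35 at Day9 (adjusted p = 1.01e-06). The remaining difference of Day9 from WT was -0.16 (adjusted p = 0.00618). The step from Day1 to Day3 was 0.17 (adjusted p = 0.00818, and 0.00581 without Day1 library 1), a call lost in the 6-library fit (0.137) and without Day1 library 3 (0.0547), and that from Day3 to Day9 was 0.08 (adjusted p = 0.263).

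ERBB2 was higher in KO than in WT, and its difference from KO was called at Day9 but not at Day1 or Day3. It stood at 3791.4, 3846.1 and 3802.0 normalised counts in WT and at 5398.1, 5985.9 and 6005.5 in KO, 1.52-fold higher (log2 0.60, SE 0.08, limma adjusted p = 1.84e-05). The Day1 libraries held 4668.0, 6257.3 and 5956.4, the Day3 libraries 5190.0, 5325.7 and 5125.1, and the Day9 libraries 4170.4, 4572.0 and 4495.0. The first Day1 library was far below the other two, so Day1 overlapped both KO and Day3, and the Day9 libraries lay between WT and Day3 without overlap. At Day9 ERBB2 was lower than in KO (log2 -0.39, adjusted p = 0.00209). All Day3 libraries also lay below all KO libraries. The Day3 difference from KO was -0.15 (adjusted p = 0.191), and it passed in the fit of those 6 libraries alone (0.00388). Day9 against WT was 0.21 (adjusted p = 0.0816) and passed with equal medians (0.029), with the replicate number as a block (0.0146) and in the 6-library fit (0.000851). Day9 against Day3 was -0.24 (adjusted p = 0.0898) and passed under the same settings (0.0233, 0.0153 and 0.000399). Without Day1 library 1, ERBB2 was lower at Day3 than at Day1 (log2 -0.23, adjusted p = 0.000763), against -0.10 (adjusted p = 0.603) with it.

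ERBB3 was higher in KO and fell by Day3. Its libraries stood at 2981.1, 3013.9 and 3002.2 in WT, 3795.7, 4005.2 and 3908.4 in KO, 3418.9, 3808.0 and 3818.1 at Day1, 3138.9, 3287.5 and 2963.9 at Day3, and 3469.7, 3431.7 and 3229.2 at Day9 (normalised counts). All Day3 and Day9 libraries lay below all KO libraries, and Day3 overlapped both WT and Day9. ERBB3 was 1.30-fold higher in KO than in WT (log2 0.38, SE 0.05, limma adjusted p = 1.61e-06), and lower than KO at Day3 (log2 -0.32, adjusted p = 4.51e-05) and Day9 (log2 -0.21, adjusted p = 0.00285). Day3 lay below Day1 by -0.23 (adjusted p = 0.00376), a call lost in the 6-library fit (0.0835) and held without Day1 library 1 (log2 -0.29, adjusted p = 2.66e-05). Day9 lay above WT by 0.17 (adjusted p = 0.015), a call lost without WT library 1 (0.0512), Day9 library 1 (0.0606) or Day9 library 2 (0.0595). ERBB2 overlaps PGAP3 and MIEN1 on the opposite strand, which averaged 577.71 and 529.25 normalised counts. The library kit marks strand, but the sources do not give the strand setting of the counting.

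LRIG1 was close to the limit of detection in every group but WT. With each library's smallest step taken as 1 read, which is an assumption, the WT libraries held 15, 8 and 17 reads, the KO libraries 0, 1 and 0, the Day1 libraries 0, 0 and 1, the Day3 libraries 2, 3 and 2, and the Day9 libraries 2, 3 and 3. No library outside WT exceeded 3 reads, and none in WT had fewer than 8. The 40 WT reads against 1 KO read gave a ratio per total reads of 41.1 (95% exact interval 6.97 to 1660), which covers counting error only. The ratio of WT to Day3 was 5.82 (2.58 to 15.4) and of WT to Day9 5.0 (2.31 to 12.4), intervals that lie above 1 for counting error. LRIG1 failed the filter and is in none of the counts of tested members. In the fit with no filter it was lower than in WT in KO (limma adjusted p = 1.18e-06) and at Day9 (adjusted p = 0.00468), and higher than in KO at Day3 (adjusted p = 0.0382) and Day9 (adjusted p = 0.0229), where 2 or 3 reads per library stand against 0 or 1. The Day1 libraries overlapped KO, and the authors' deposited table called LRIG1 between WT and KO (adjusted p = 0.000506). No fold is given between KO and the doxycycline groups, whose libraries all held 3 reads or fewer. LRIG1 overlaps SLC25A26 (272.88 normalised counts on average) on the opposite strand.

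ERRFI1 had the smallest log2 difference of the tested members in KO against WT. It stood at 3161.5, 3118.8 and 3132.5 normalised counts in WT, and at 3412.1, 3255.7 and 3801.9 in KO. The Day1 libraries held 3589.2, 3295.4 and 3196.0, the Day3 libraries 3240.9, 3332.2 and 3263.2, and the Day9 libraries 3091.4, 2964.7 and 2938.6. The third KO library was far above the other two, Day1 and Day3 overlapped KO, and Day9 lay below all other groups. ERRFI1 was 1.11-fold higher in KO than in WT (log2 0.15, SE 0.05, limma adjusted p = 0.02), but the call was lost without KO library 3 (0.172) or WT library 2 (0.0566). At Day9 it was lower than in KO (log2 -0.22, adjusted p = 0.00347), and the difference from WT missed the threshold (log2 -0.07, adjusted p = 0.406). Day9 against Day3 was -0.13 (adjusted p = 0.142) and passed in the 6-library fit (0.0465).

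Of the 8 tested members, 3 differed from KO at Day1, 5 at Day3 and 7 at Day9 (the plot of log2 differences), and the share of all genes called was also larger at Day3 and Day9 than at Day1. At Day1 against KO, 3 members passed, 1 higher (TGFA) and 2 lower (AREG and EREG), against 10.9% of all genes, 4.94% higher and 5.97% lower. At Day3 against KO, 5 passed, 2 higher (EGFR and TGFA) and 3 lower (ERBB3, AREG and EREG), against 27.4% of all genes, 13.5% higher and 13.9% lower. At Day9 against KO, 7 passed, 3 higher (EGFR, AREG and EREG) and 4 lower (ERBB2, ERBB3, HBEGF and ERRFI1), against 25.9% of all genes, 12.4% higher and 13.4% lower. All 7 had then the sign opposite to their KO against WT difference, as did the point estimate for TGFA, the eighth, but these comparisons share the KO libraries. AREG and EREG at Day1 and Day3, and TGFA at those times, moved away from WT rather than towards it. At Day9 against WT, 4 of 8 passed, 3 higher (ERBB3, TGFA and HBEGF) and 1 lower (EGFR), against 21.8% of all genes (10.4% higher and 11.4% lower), and the median size of the difference was 0.16 over members and 0.14 over all genes. Within the second project code, 4 of 8 differed between Day9 and Day3, AREG and EREG higher and TGFA and HBEGF lower, against 7.42% of all genes, 3.03% higher and 4.39% lower. Between Day3 and Day1, 2 of 8 passed (EGFR higher, ERBB3 lower), against 7.35% of all genes, 4% higher and 3.36% lower.

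**Figure D3:**
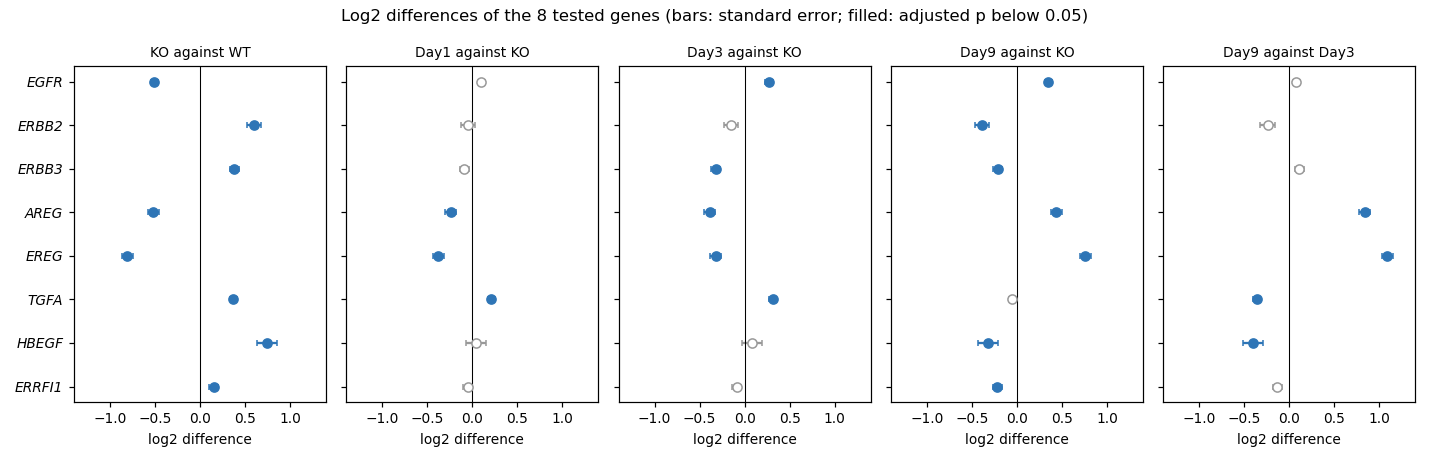
Log2 differences of the 8 tested members on the x axis with standard errors, 1 panel for each of 5 comparisons, filled where the adjusted p is below 0.05. Day9 against KO lies on the side of 0 opposite to KO against WT for each member, and AREG and EREG are below 0 at Day1 and Day3.

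Set per kilobase of annotated exon (GENCODE 29, which may differ from the annotation the counts were made with), the ligands EREG and AREG were the most abundant members in WT. EREG stood at 1190 ± 76 normalised counts per kilobase (SD, n = 3) and AREG at 889 ± 22, followed by ERRFI1 at 750 ± 5.2. TGFA (370 ± 11) and ERBB2 (369 ± 2.8) did not differ beyond their spread, and ERBB3 (332 ± 1.8), EGFR (205 ± 1.3), HBEGF (35.3 ± 2.1) and LRIG1 (1.89 ± 0.67) came below them. In KO, ERRFI1 led at 834 ± 67, ahead of EREG (684 ± 70) and AREG (622 ± 22), which overlapped each other, and ERBB2 stood at 562 ± 33. At Day3, TGFA at 591 and ERRFI1 at 783 stood above EREG at 545. At Day9 the group means of all 9 members stood in the same order as in WT, with EREG at 1160 ± 42 and AREG at 845 ± 19. The order of TGFA and ERBB2 was not resolved in WT, whereas at Day9 TGFA (460 ± 9.7) lay above ERBB2 (428 ± 21) without overlap.

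Over the 15 libraries, the gene whose log2 levels were most like those of AREG was EREG, out of 11553 genes averaging 50 or more normalised counts (Pearson r 0.972), and AREG was also first for EREG. GALNT12 was the next for both (r 0.96 with AREG and 0.972 with EREG). These correlations describe 5 group means more than 15 independent points and carry no test. TGFA correlated at -0.903 with AREG and at 0.888 with HBEGF. The closest genes were TGFBI (0.99) for EGFR, NBL1 (0.982) for ERBB2, ABHD14B (0.974) for ERBB3, LOXL4 (0.969) for TGFA, MPC2 (0.939) for HBEGF, LMF1 (0.968) for LRIG1 and C1orf131 (0.906) for ERRFI1.

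Genes that act with the receptors were counted in the same way. For every list below, the share of all genes called in KO against WT was 49.7%, 24.8% higher and 24.8% lower. The counts for ligand shedding, receptor downregulation, adaptors and the PI3-kinase to AKT core lay near or below that share. Of 7 tested genes of ligand shedding, 1 rose and 1 fell in KO against WT, and the one that fell, RHBDF2, an inactive rhomboid partner of ADAM17 (log2 -0.39, limma adjusted p = 0.0332), lost its call without WT library 2 (0.102) or 3 (0.087) or KO library 1 (0.127) or 2 (0.0619). ADAM19, a metalloprotease, averaged 29.2 normalised counts in WT and 108.9 in KO (log2 1.88, limma adjusted p = 4.62e-08) and was lower at Day9 than in KO (log2 -0.69, adjusted p = 0.00859). ADAM9, another membrane metalloprotease, averaged 6337.5 ± 183.0 in WT, 6054.0 ± 294.6 in KO, 8598.7 ± 538.3 at Day1, 8748.3 ± 91.0 at Day3 and 6899.7 ± 334.9 at Day9. Like TGFA it was higher at Day1 than in KO (log2 0.51, adjusted p = 8.75e-07) and lower at Day9 than at Day3 (log2 -0.34, adjusted p = 9.54e-05). Of 25 genes of receptor downregulation, 7 rose and 5 fell in KO, among them the ubiquitin ligase CBL (log2 -0.31, adjusted p = 2.02e-05) and UBASH3B, a phosphatase that opposes CBL (log2 -0.55, adjusted p = 1.21e-07). The count of 7 risen went down to as few as 2 when 1 library was left out. Of 16 adaptors, CRKL (log2 0.17, adjusted p = 0.00315) and GRB7 (0.25, adjusted p = 0.0281) rose, and SOS2 (-0.32, adjusted p = 0.00392) and VAV2 (-0.30, adjusted p = 0.00993) fell. The GRB7 call was lost without WT library 1 (0.0546) or 2 (0.0893) or KO library 2 (0.0787) or 3 (0.0853), and the VAV2 call without KO library 1 (0.0738).

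Below the receptors, 4 of 13 genes of the RAS to MAP kinase core rose and 4 fell in KO, with BRAF (log2 -0.37, limma adjusted p = 1.14e-05) lower and KSR1, a scaffold of the cascade (0.70, adjusted p = 3.35e-05), and HRAS (0.31, adjusted p = 0.000208) higher. Of 8 tested genes of the PI3-kinase to AKT core, 1 rose and 1 fell. They were the regulatory subunits PIK3R3, at 104.7 ± 8.6 normalised counts in WT and 308.3 ± 9.8 in KO (log2 1.55, adjusted p = 4.45e-11), and PIK3R1 (log2 -0.49, adjusted p = 1.91e-06). PIK3R3 fell at Day9 against KO (log2 -1.30, adjusted p = 2.49e-09). Of 18 genes of ERK output, 7 rose and 6 fell, with a median log2 difference of 0.14 against 0.0 over all genes. The called genes thus went both ways. DUSP6, given next, was among those that fell and does not stand for the list. DUSP6, a phosphatase that switches ERK off and is induced by it, averaged 2361.9 ± 77.9 in WT, 1139.1 ± 88.3 in KO, 1098.0 ± 40.4 at Day1, 1753.4 ± 86.4 at Day3 and 1930.3 ± 9.4 at Day9. Its log2 difference was -1.05 in KO against WT (adjusted p = 1.74e-12) and 0.76 at Day9 against KO (adjusted p = 1.12e-09).

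Of 15 other receptor tyrosine kinases, 8 rose and 1 fell in KO against WT, with a median log2 difference of 0.22. Over all genes, 24.8% were higher and 24.8% lower. At Day9 against KO, 1 rose and 6 fell, with a median of -0.16, against 12.4% higher and 13.4% lower over all genes. MET, the hepatocyte growth factor receptor, averaged 4320.9 ± 104.0 normalised counts in WT, 6824.6 ± 60.3 in KO and 4615.5 ± 69.5 at Day9 (log2 0.66 in KO against WT, limma adjusted p = 2.01e-11). FGFR3, a fibroblast growth factor receptor, averaged 130.9 ± 11.3 in WT and 741.1 ± 73.8 in KO (log2 2.49, adjusted p = 7.06e-08). KIT, the stem cell factor receptor, was the gene of the list that fell. It averaged 2071.3 ± 35.9 in WT, 549.6 ± 9.3 in KO, 561.9 ± 68.2 at Day1, 824.0 ± 8.0 at Day3 and 1662.7 ± 45.0 at Day9, with a log2 difference of -1.91 in KO against WT (adjusted p = 9.19e-16) and 1.60 at Day9 against KO (adjusted p = 5.02e-14). The lists were chosen with earlier results of these data known, so their counts describe them and carry no test.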

How the data were processed

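Poly(A) RNA of 15 DLD1 libraries was prepared with a strand-marking kit. Groups and replicate numbers are those of the sample titles. Per the submitters' processing notes, the tools were HISAT2 2.1.0, HTSeq and DESeq2 and the build was hg19; annotation, strand setting and the other versions are not given. The authors deposited normalized counts (a signal: each count over the size factor of its library), whose values were whole multiples of a step of 0.98989 to 1.00735. Their deposited log2 fold changes and adjusted p-values against KO were compared with the calls made here. A symbol was found for 22463 of 22706 genes by Ensembl ID, and 1 gene with a text cell was dropped.

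The test was limma 3.58.1 with statmod 1.5.0 under R 4.3.3, on log2(value + 1) of the 15134 genes that reached 10 in 3 or more libraries. All 15 libraries were fitted with a mean for each group, and variances were moderated with a trend, robustly. P-values for 7 comparisons were two-sided and Benjamini-Hochberg adjusted over all genes, with a threshold of 0.05. The median standard error of a log2 difference was 0.087. The planned count tests were not run, because with steps this near 1 it was not established that a step is 1 read. The counting intervals of LRIG1 and the limma-voom weights assume it. The fit was tested on simulated data. Settings varied were the pseudocount, the filter, the scaling to equal medians, a replicate block, the compared groups alone and each library left out. Members and lists were chosen with earlier results of these data known. Genes named were the members, USP7, other EGF-type ligands, up to 4 called genes per list by lowest adjusted p in KO against WT and up to 2 in Day9 against KO, and the genes most correlated with each member. The epithelial markers given singly were added after their values were seen. One gene that this rule names is not reported here. Same-numbered libraries correlated at r of -0.061 to 0.189 in their deviations from group means, and in no comparison were all pairs above 0.1, so the numbers were not used to pair samples.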

Additional observations from a re-analysis of the deposited data

Results flagged for a closer look

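The change between consecutive times on doxycycline was called in 6 member comparisons, each flagged because the effect differed between time points by a limma test of the difference itself. Between Day1 and Day3 the log2 difference was 0.17 for EGFR and -0.23 for ERBB3, and the time difference there cannot be told apart from the project code. Between Day3 and Day9, within 1 project code, it was 0.84 for AREG, 1.09 for EREG, -0.36 for TGFA and -0.40 for HBEGF. The HBEGF value rests on single libraries, as given above. Groups of 3 libraries were not tested for samples far from the others.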

How the results depend on the processing

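Over 816 member values recomputed under the alternative settings, 780 kept their direction and side of the threshold, 25 lost a call, 11 gained one and 0 of the called values reversed; the changes fell in 15 of 56 member and comparison pairs, and the cause was not tested. In a fit of the compared groups only, 613 genes were called for Day1 against KO and 426 for Day3 against Day1, with 0 members called for Day3 against Day1. With 1 library left out, genes called ranged from 958 to 2418 for Day1 against KO, from 737 to 2026 for Day3 against Day1, from 627 to 924 for Day9 against Day3, from 6531 to 6677 for KO against WT, from 3219 to 3414 for Day3 against KO, from 3003 to 3399 for Day9 against KO and from 2409 to 2963 for Day9 against WT. The high ends of Day1 against KO and Day3 against Day1 came without Day1 library 1, and counts over 1.5 times below the full fit came without any KO library (984, 958 and 1058) or Day1 library 3 (1096) for Day1 against KO, without Day1 library 3 (737) for Day3 against Day1, and without Day3 library 1 (627) or 3 (672) or Day9 library 2 (644) or 3 (629) for Day9 against Day3. Members called ranged from 7 to 8 for KO against WT, 2 to 3 for Day1 against KO, 5 to 5 for Day3 against KO, 6 to 7 for Day9 against KO, 2 to 4 for Day9 against WT, 1 to 4 for Day3 against Day1 and 3 to 4 for Day9 against Day3. With no filter, LRIG1 was also called, and 9 members passed for KO against WT and 6 for Day3 against KO. With the replicate number as a block, which the pairing check did not require (19 of 42 libraries correlated best with their own number, though 5 of 6 did for Day1 against KO, at r of 0.038 to 0.189, and for Day9 against KO, at 0.021 to 0.091), 7936 genes were called for KO against WT and 5 members for Day9 against WT, and the block changed 2 member calls, both of ERBB2. Weights by limma-voom, chosen after seeing the data and computed with each step taken as 1 read, changed 0 member calls. The authors' deposited table called 9, 3, 5 and 6 members for KO against WT and for Day1, Day3 and Day9 against KO. The planned edgeR and DESeq2 alternatives were not run. Depth limits LRIG1, at 3 reads or fewer in every library outside WT, so its unfiltered calls between KO and Day3 or Day9 rest on differences of 1 to 3 reads per library.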
